A study of Mus musculus with 30 samples.

Results

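The comparison described here asks whether MGT, the trio of cardiac factors Mef2c, Gata4 and Tbx5, changes gene expression by a different ratio in cardiac fibroblasts of 3-month-old mice than in those of neonatal mice. Its members are 8 bulk RNA-seq libraries of the 30 samples of the series, taken by their age and treatment labels, and all 16368 genes that passed a filter on low counts, of 55401 in the table. For each gene the difference is the log2 change between MGT and LacZ cells at 3 months minus the same change in neonatal cells. A positive difference means a larger rise, or a smaller fall, with MGT at 3 months.

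The groups were 3-month MGT cells, 3-month LacZ cells, neonatal MGT cells and neonatal LacZ cells, with 2 libraries each. All were primary cardiac fibroblasts from hearts of WT mice, at 3 months or at postnatal day 1 to 3, and were collected on day 3. LacZ, a bacterial enzyme with no role in the heart, was the control transgene, so every library came from cells that carried a transgene. Cells of 18 months with the same treatments were fitted together with these groups. They entered the filter on low counts, the library size factors and the estimate of the spread. Otherwise they served only for values set beside the results. Their age is that of the labels, and the table's column names give another one. The titles of the LacZ samples also carry the word MGT, and their treatment label, LacZ, was followed here. The labels do not say whether the libraries of a group came from separate animals or cultures. So p-values measure the spread between these libraries, which may be technical. The column names of the neonatal LacZ libraries carry a further number, the same in both, that those of the other groups lack. What it stands for is not said, and the last number was taken as the replicate. In bulk RNA a change in the number of cells of a type and a change in RNA per cell cannot be told apart.

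As background, Mef2c, Gata4 and Tbx5 are transcription factors of the developing heart that bind one another's target genes. Given together they switch on sarcomere, calcium-handling and ion-channel genes in fibroblasts and lower fibroblast genes, a direct conversion that passes through no stem cell state. Fibroblasts of older animals are known to convert less readily than neonatal ones.

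The 8 libraries held 14489836 to 18796708 counts each. Levels are in CPM, the usual unit of counts scaled to library size, with sizes adjusted by TMM factors. Every value after ± is an approximate standard error on the log2 scale. It is the size of the log2 value divided by the square root of its F statistic in edgeR's quasi-likelihood test. For log2 values near 0 it is only a rough guide. The 2 libraries of 3-month LacZ cells differed more than those of any other group, with a chi-square per degree of freedom over genes of 18.9, against 2.29 to 6.66 in the other 5 groups. In replicate 2 of that group the shortest genes lay above their mean over all 12 libraries of the table and the longest below it, and the long minus short median log2 deviation was -0.43 there, against -0.14 to 0.14 in the other 11 libraries. The sex of the animals also differed between the ages. Xist, the RNA of the inactive X chromosome, was at 526 and 439.8 CPM in neonatal MGT cells and 516 and 548 CPM in neonatal LacZ cells. In the 3-month libraries it was at 0.568 CPM or less. The 7 Y-linked genes tested summed to 105 to 116 CPM in the neonatal libraries and 254 to 278 CPM in the 3-month ones. So the neonatal libraries held RNA of both sexes and the 3-month ones RNA of males. Age and sex of the animals cannot be told apart here.

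The difference passed the test for 605 genes, 3.7% of those tested, at a Benjamini-Hochberg adjusted p under 0.05 in edgeR's quasi-likelihood test, and 2257 genes had an unadjusted p under that value. It was positive for 374 genes (2.28%) and negative for 231 genes (1.41%), and the median over all tested genes was -0.0069. MGT raised 1472 genes (8.99%) and lowered 1374 (8.39%) at 3 months, against 698 (4.26%) and 531 (3.24%) in neonatal cells. These shares over all genes are the background for each count of list members called below, also where they are not repeated. The positive differences were the larger ones, with a median size of 1.26 log2 units against 0.74 for the negative ones, and 236 positive and 66 negative ones were at least 2-fold. The calls depended on the libraries. Without replicate 1 of 3-month LacZ cells, which leaves only the library that stood apart, 1016 positive and 744 negative differences were called. The negative count was 105 and 128 without replicates 1 and 2 of 3-month MGT cells, 129 without replicate 1 of neonatal MGT cells, and 118 and 114 without replicates 1 and 2 of neonatal LacZ cells. In all 8 fits with 1 library left out, 188 positive and 65 negative genes were called, and the text draws its examples from these where it can.

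The single effects show how the differences arose. Of the 374 positive genes, 113 rose with MGT at both ages, 167 rose at 3 months and did not pass the test in neonatal cells, and 35 rose at 3 months and fell in neonatal cells. Another 48 fell in neonatal cells without passing the test at 3 months, 4 fell at both ages and 7 passed neither test. Of the 231 negative genes, 128 fell at 3 months and did not pass the test in neonatal cells, 59 fell at both ages, 7 fell at 3 months and rose in neonatal cells, and 25 rose in neonatal cells without passing the test at 3 months. A further 8 rose at both ages and 4 passed neither test.

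**Figure D1:**
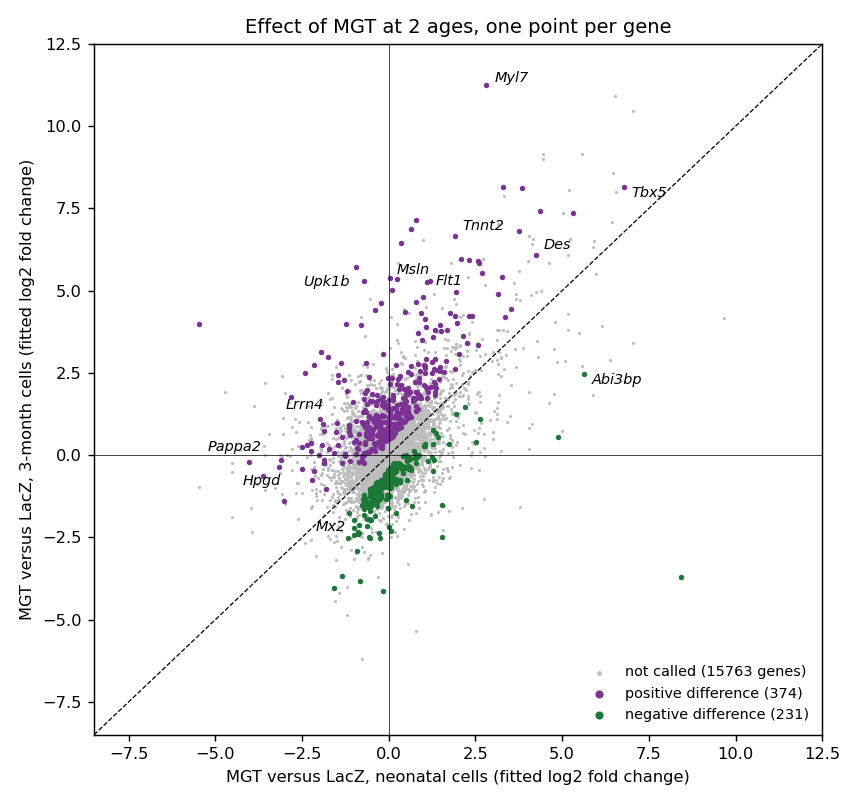
Each point is 1 of 16368 genes, with the fitted log2 fold change of MGT against LacZ in neonatal cells on the x axis and in 3-month cells on the y axis; the dashed line marks equal effects. The 374 genes with a positive difference (purple) lie above the line and the 231 with a negative one (green) below it, and Upk1b and Msln sit near or left of 0 on the x axis but above 5 on the y axis.

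A difference of ratios depends on the level in LacZ cells. Computed in CPM instead of log2, the gain with MGT at 3 months was smaller than the neonatal gain for 38 of the 374 positive genes, and larger for 11 of the 231 negative ones. These include several of the cardiac genes described next. Among those, the difference in CPM is printed for Tnnt2 and Myl7. By the levels or counts given below, the gain in CPM was also smaller at 3 months for Des, Ldb3, Casq2, Gja3 and Kcnj5.

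The transduced factors themselves come first, since their reads include both the transgene and the endogenous gene, which the counts cannot tell apart. Tbx5 (ENSMUSG00000018263, chromosome 5, 119832668 to 119885219, plus strand, in build GRCm38 like all gene coordinates here) had 289 and 278 CPM in 3-month MGT cells, against 1.22 and 0.795 CPM in 3-month LacZ cells. Tbx5 had 218 and 270 CPM in neonatal MGT cells, against 2.45 and 1.97 CPM in neonatal LacZ cells. The 3-month MGT cells were slightly above the neonatal ones, and the 3-month LacZ cells were below the neonatal ones. Its difference was 1.36 ± 0.33 (adjusted p = 0.0183). Mef2c had 214 and 200.1 CPM in 3-month MGT cells, against 10.1 and 8.97 CPM in 3-month LacZ cells. The neonatal Mef2c levels were 178 and 219 CPM with MGT, against 18.3 and 16.5 CPM with LacZ. The Mef2c difference was 0.93 ± 0.18 (adjusted p = 0.00264). For Mef2c the MGT cells overlapped between ages and the LacZ cells did not. Gata4 had 238 and 235 CPM in 3-month MGT cells, against 123 and 117 CPM in 3-month LacZ cells. In neonatal cells Gata4 had 268 and 305 CPM with MGT, against 165 and 154 CPM with LacZ, and its difference of 0.14 ± 0.12 (adjusted p = 0.719) did not pass the test. The Tbx5 difference lost its call without replicate 1 or 2 of 3-month LacZ cells (adjusted p 0.0529 and 0.362) or replicate 1 of neonatal LacZ cells (0.142), and the Mef2c difference without replicate 2 of 3-month LacZ cells (0.0654).

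Nr4a3, the nuclear receptor gene the series is about, rose with MGT at both ages by nearly the same ratio. It had 37.6 and 44.6 CPM in 3-month MGT cells, against 11.3 and 13.5 CPM in 3-month LacZ cells. Nr4a3 had 10.1 and 8.18 CPM in neonatal MGT cells, against 2.73 and 2.83 CPM in neonatal LacZ cells. The levels of the 2 ages did not overlap within a treatment, and the highest were those of 3-month MGT cells. The change with MGT was 1.72 ± 0.17 at 3 months and 1.72 ± 0.23 in neonatal cells, and the difference was 0.01 ± 0.41 (adjusted p = 0.999).

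Sarcomere genes, which encode the contractile filaments and their anchors, mostly rose with MGT at both ages, and 6 of 26 did so by a larger ratio at 3 months. Of 26 tested members of 30 listed, 20 rose and 0 fell at each age. Over all genes 8.99% rose at 3 months and 4.26% in neonatal cells. The median effect was 4.86 at 3 months and 2.14 in neonatal cells. The difference was positive for 6, where it was for 2.28% of all genes, and negative for 0. Its median was 1.49, or 0.92 with the 4 members that had 0 counts in a group set at a floor of 3 counts per group. In LacZ cells 15 members were lower at 3 months than in neonatal cells, where 15.8% of all genes were, and 0 were higher, where 15.1% of all were. The count of 6 became 11 without replicate 2 of neonatal MGT cells, in which the sarcomere list summed to 4899 CPM, against 3832 CPM in replicate 1.

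Tnnt2, the cardiac troponin T of the thin filament (ENSMUSG00000026414, chromosome 1, 135836354 to 135852260, plus strand), had 276 and 313 CPM in 3-month MGT cells, against 2.81 and 3.01 CPM in 3-month LacZ cells. The neonatal Tnnt2 levels were 879 and 1276 CPM with MGT, against 310 and 262 CPM with LacZ. It was lowest in 3-month LacZ cells, and the 3-month MGT cells only reached the level of neonatal LacZ cells. Its change with MGT was 6.66 ± 0.26 at 3 months and 1.91 ± 0.18 in neonatal cells, and the difference was 4.74 ± 0.32 (adjusted p = 2.77e-05). In CPM the gain at 3 months minus the neonatal gain was nonetheless -499 CPM.

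Myl7, the atrial regulatory myosin light chain (ENSMUSG00000020469, chromosome 11, 5896637 to 5898782, minus strand), had 18.5 and 18.1 CPM in 3-month MGT cells, against 0 and 0 CPM in 3-month LacZ cells. In neonatal cells Myl7 had 47.2 and 75.2 CPM with MGT, against 8.26 and 9.28 CPM with LacZ. The 3-month LacZ libraries held 0 counts together, so MGT cells were at least 203.3-fold higher against a floor of 3 counts over the group. With the counting error of the 560 counts in MGT cells included, the lower 95% limit of that ratio was 164.8. In neonatal cells the ratio was 6.92 (2082 against 319 counts). The fitted difference passed the test (adjusted p = 4.16e-05), and the difference in CPM was again negative (-34.2 CPM).

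Des, the muscle intermediate filament protein desmin (ENSMUSG00000026208, chromosome 1, 75360329 to 75368579, plus strand), had 254 and 277 CPM in 3-month MGT cells, against 3.84 and 3.98 CPM in 3-month LacZ cells. Des had 249 and 315 CPM in neonatal MGT cells, against 14.9 and 14.6 CPM in neonatal LacZ cells. Here the MGT cells of the 2 ages overlapped, and the LacZ cells were lower at 3 months. The difference was 1.82 ± 0.18 (adjusted p = 1.56e-07). Ldb3, a Z-disc protein, had 34.7 and 35.6 CPM in 3-month MGT cells, against 3.198 and 3.41 CPM in 3-month LacZ cells. The neonatal Ldb3 levels were 76.96 and 95.9 CPM with MGT, against 18.3 and 17.7 CPM with LacZ, all 4 groups being apart. The Ldb3 difference was 1.15 ± 0.20 (adjusted p = 8.36e-04). Itga7, the laminin-binding integrin of muscle, was in no list but had a difference of 3.07 ± 0.16 (adjusted p = 1.21e-12), with 145 and 154 CPM in 3-month MGT cells, against 9.02 and 8.06 CPM in 3-month LacZ cells. In neonatal cells Itga7 had 117 and 141 CPM with MGT, against 65.4 and 58.5 CPM with LacZ. The 3-month MGT cells were highest and the 3-month LacZ cells lowest.

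Myh6, the myosin heavy chain that marks differentiated cardiomyocytes, was read in neonatal cells without a change with MGT. It had 0 CPM in all 4 libraries of 3 months, 7.53 and 8.66 CPM in neonatal MGT cells and 8.32 and 7.63 CPM in neonatal LacZ cells. The sarcomere list as a whole summed to 784 to 814 CPM in 3-month LacZ cells and 1454 to 1522 CPM in neonatal LacZ cells. Whether cardiomyocytes carried over from neonatal hearts took part in these differences was not tested.

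**Figure D2:**
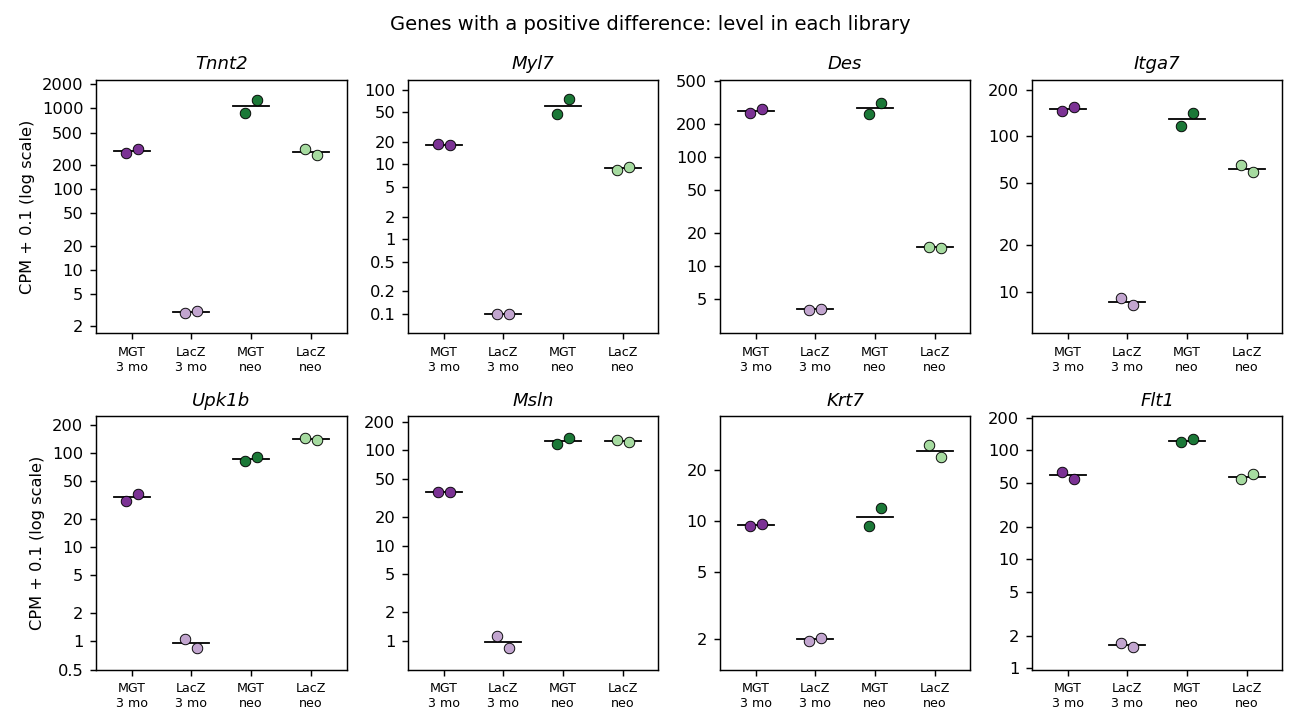
Level of 8 genes with a positive difference in each of the 8 libraries (points; the bar is the mean of the 2), as CPM + 0.1 on a log axis, with 3-month MGT, 3-month LacZ, neonatal MGT and neonatal LacZ cells from left to right. In every panel the 3-month LacZ cells are lowest, and in neonatal LacZ cells Upk1b and Krt7 lie above the MGT cells of the same age.

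Calcium-handling and natriuretic peptide genes had 4 positive and 1 negative difference among 15 tested, with a median of 0.40. Jph1, which ties the plasma membrane to the sarcoplasmic reticulum, had 11.5 and 12.1 CPM in 3-month MGT cells, against 1.85 and 2.16 CPM in 3-month LacZ cells. Jph1 had 16.8 and 21.5 CPM in neonatal MGT cells, against 10.2 and 10.1 CPM in neonatal LacZ cells, and LacZ cells of 3 months were lowest. Its difference was 1.63 ± 0.26 (adjusted p = 2.55e-04). Slc8a1, the sodium-calcium exchanger, went the other way. The Slc8a1 difference was -0.77 ± 0.17 (adjusted p = 0.00645). It had 53.8 and 51.4 CPM in 3-month MGT cells, against 50.5 and 36.3 CPM in 3-month LacZ cells. The neonatal Slc8a1 levels were 87.8 and 98.8 CPM with MGT, against 41.8 and 47.9 CPM with LacZ, and the neonatal MGT cells were highest. Casq2, the calcium store protein of the sarcoplasmic reticulum, gave 335 counts in 3-month MGT cells against 3 in 3-month LacZ cells, a ratio of 121.6 with a 95% interval from counting of 41.3 to 593, and 1231 against 96 counts in neonatal cells, a ratio of 13.6 (11.0 to 16.9). Its call did not outlast the loss of either 3-month MGT library, either 3-month LacZ library or replicate 2 of neonatal LacZ cells, and the Slc8a1 call that of replicate 1 of neonatal LacZ cells. The count of 5 called members fell to 2 or 3 in 5 of the 8 fits with a library left out, namely those without either 3-month MGT library, either 3-month LacZ library or replicate 2 of neonatal LacZ cells.

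Among cardiac ion channels and junction proteins 2 of 19 tested members differed, both positively, and the median was 0.95. Gja3, a connexin, had 2.91 and 2.69 CPM in 3-month MGT cells, against 0.32 and 0.17 CPM in 3-month LacZ cells. In neonatal cells Gja3 had 5.45 and 7.99 CPM with MGT, against 3.65 and 3.202 CPM with LacZ. Kcnj5, a subunit of the atrial acetylcholine-activated potassium channel, had 1.61 and 2.21 CPM in 3-month MGT cells, against 0.256 and 0 CPM in 3-month LacZ cells. Kcnj5 had 16.9 and 22.04 CPM in neonatal MGT cells, against 9.46 and 8.91 CPM in neonatal LacZ cells. For both the 3-month LacZ cells were lowest, at a few counts. The differences were 2.53 ± 0.54 (adjusted p = 0.00465) and 2.81 ± 0.75 (adjusted p = 0.0362). The Gja3 call was lost without replicate 2 of 3-month LacZ cells, and so was the Kcnj5 call, whose difference was 1.77 there. Kcnj5 was also not called without either 3-month MGT library, replicate 1 of neonatal MGT cells or either neonatal LacZ library, so that the list then had 1 call in each of these fits. With the replicate block it was not called either (adjusted p = 0.0548), which also left 1 call. Gja1, the main ventricular connexin, and Gjc1 did not pass the test, at 0.44 ± 0.13 (adjusted p = 0.0606) and -0.39 ± 0.14 (adjusted p = 0.174).

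Endogenous cardiac transcription factor genes other than the 3 transgenes gave 2 positive and 1 negative difference among 21 tested, and the median was 0.15. Tbx3, a T-box repressor of the conduction system, had 10.5 and 10.5 CPM in 3-month MGT cells, against 2.24 and 1.93 CPM in 3-month LacZ cells. The neonatal Tbx3 levels were 4.83 and 5.39 CPM with MGT, against 3.02 and 2.56 CPM with LacZ. The Tbx3 difference was 1.46 ± 0.35 (adjusted p = 0.0134). Tbx20, a T-box factor already abundant in fibroblasts, had 407 and 430.2 CPM in 3-month MGT cells, against 676 and 557 CPM in 3-month LacZ cells. In neonatal cells Tbx20 had 989.6 and 1044 CPM with MGT, against 1015 and 1052 CPM with LacZ. It fell with MGT only at 3 months, where its change was -0.56 ± 0.10 against -0.02 ± 0.10 in neonatal cells, and the difference was -0.54 ± 0.14 (adjusted p = 0.0311). Myocd, the coactivator of smooth and cardiac muscle genes, had a difference of 2.26 ± 0.58 (adjusted p = 0.025) at levels under 8 CPM. None of the 3 calls held in all fits with a library left out: without replicate 1 of neonatal LacZ cells 0 members were called, and 1 without replicate 1 of 3-month MGT cells, replicate 1 or 2 of neonatal MGT cells or replicate 2 of neonatal LacZ cells. Ankrd1, the most abundant member that did not pass the test, had a difference of -0.17 ± 0.11 (adjusted p = 0.56).

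Skeletal muscle genes rose with MGT in similar number at both ages. Of 14 tested among 32 listed, 5 rose at each age, and the difference was called for 1, the neonatal myosin Myh8. It held 0 counts in 3-month MGT cells and 3 in 3-month LacZ cells, against 88 counts in neonatal MGT cells and 0 in neonatal LacZ cells, which is at least 31.1-fold higher with MGT there against a floor of 3 counts over the group, with a lower 95% limit from counting of 24.8. DESeq2 gave it no adjusted p, the fit without replicate 2 of 3-month LacZ cells did not call it, and 2 members were called without replicate 1 of 3-month LacZ cells, replicate 2 of neonatal MGT cells or replicate 1 of neonatal LacZ cells. Myh1, a fast myosin whose reads may be shared with near-identical neighbours, rose at both ages, by 6.34 ± 0.40 at 3 months and 5.89 ± 0.34 in neonatal cells.

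Markers of the epicardium and mesothelium, the sheet of cells that covers the heart, had the largest share of called members of any list in the fit of all 12 libraries. Of 16 tested, 7 had a positive and 1 a negative difference, and the median was 2.82. That is 50% called, against 3.7% of all genes. This rank depended on the fit: with the 8 libraries alone 7 members of this list and 23 interferon-stimulated genes were called. MGT raised 6 and lowered 3 at 3 months, where 8.99% and 8.39% of all genes were. In neonatal cells 1 was raised and 11 were lowered, where 4.26% and 3.24% of all were. In LacZ cells 14 members were lower at 3 months than in neonatal cells, where 15.8% of all genes were.

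Upk1b, a uroplakin of mesothelial cells (ENSMUSG00000049436, chromosome 16, 38773184 to 38800328, minus strand), had 30.9 and 36.4 CPM in 3-month MGT cells, against 0.959 and 0.738 CPM in 3-month LacZ cells. Upk1b had 83.04 and 89.6 CPM in neonatal MGT cells, against 146 and 139 CPM in neonatal LacZ cells. MGT cells were above LacZ cells at 3 months and below them in neonatal cells, with no overlap at either age. Its effects were 5.305 ± 0.19 at 3 months and -0.72 ± 0.10 in neonatal cells, and the difference of 6.03 ± 0.22 (adjusted p = 4.88e-16) was the largest among called genes with more than 3 counts in each group. Msln, the cell-surface protein mesothelin (ENSMUSG00000063011, chromosome 17, 25748613 to 25754378, minus strand), had 36.4 and 36.5 CPM in 3-month MGT cells, against 1.02 and 0.738 CPM in 3-month LacZ cells. The neonatal Msln levels were 118 and 135 CPM with MGT, against 127 and 122 CPM with LacZ. At 3 months MGT cells stood far above LacZ cells, while the neonatal groups overlapped. The difference was 5.35 ± 0.21 (adjusted p = 1.48e-15).

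Krt7, a keratin of simple epithelia, had 9.17 and 9.45 CPM in 3-month MGT cells, against 1.85 and 1.93 CPM in 3-month LacZ cells. In neonatal cells Krt7 had 9.16 and 11.8 CPM with MGT, against 27.7 and 23.6 CPM with LacZ, and here too MGT cells lay above LacZ cells at 3 months and below them in neonatal cells. The difference was 3.59 ± 0.27 (adjusted p = 1.42e-09). Lrrn4, a leucine-rich repeat protein of mesothelium, had 3.04 and 1.93 CPM in 3-month MGT cells, against 0.895 and 1.42 CPM in 3-month LacZ cells. Lrrn4 had 63.02 and 65.1 CPM in neonatal MGT cells, against 268 and 239 CPM in neonatal LacZ cells. Its level was far higher in neonatal cells, and the opposite changes, 1.09 ± 0.32 at 3 months and -1.98 ± 0.12 in neonatal cells, gave a difference of 3.08 ± 0.34 (adjusted p = 3.41e-06). Wt1 and Muc16 were added after their values were seen. Wt1 was near 0 at 3 months, with 0.186 and 0.207 CPM in 3-month MGT cells and 0.128 and 0.0568 CPM in 3-month LacZ cells. It had 6.91 and 6.96 CPM in neonatal MGT cells and 20.7 and 18.5 CPM in neonatal LacZ cells. Muc16 was at 0 in both 3-month MGT libraries. The list summed to 479 to 522 CPM in 3-month MGT cells and 685 to 705 CPM in 3-month LacZ cells, against 564 to 593 CPM in neonatal MGT cells and 1085 to 1209 CPM in neonatal LacZ cells. So the sum fell with MGT at 3 months, while Upk1b, Msln, Krt7 and Lrrn4 rose. These 4 were the called members with the smallest p, and MGT lowered 3 members of the list at 3 months. The members named here made up little of the sum in 3-month LacZ cells. The list also holds Tcf21, which was taken as a marker of cardiac fibroblasts too, so the sum is not of mesothelial genes alone. The part of mesothelial cells in these results was not tested.

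Endothelial markers, which line blood vessels, showed 3 positive differences among 13 tested, with a median of 0.98. Flt1, a receptor for vascular endothelial growth factor (ENSMUSG00000029648, chromosome 5, 147561604 to 147726011, minus strand), had 63.5 and 54.6 CPM in 3-month MGT cells, against 1.599 and 1.48 CPM in 3-month LacZ cells. The neonatal Flt1 levels were 119.7 and 126 CPM with MGT, against 54.2 and 60.5 CPM with LacZ. The 3-month MGT cells were at the level of neonatal LacZ cells, and the 3-month LacZ cells were lowest. The difference was 4.16 ± 0.22 (adjusted p = 1.21e-12), and in CPM it was -8.16. Emcn, the sialoglycoprotein endomucin, had 4.401 and 3.102 CPM in 3-month MGT cells, against 1.09 and 1.31 CPM in 3-month LacZ cells. In neonatal cells Emcn had 62.2 and 55.4 CPM with MGT, against 81.4 and 82.4 CPM with LacZ. The Emcn difference was 2.12 ± 0.30 (adjusted p = 4.27e-05). Pecam1, an adhesion molecule of the endothelium, had 6.32 and 3.86 CPM in 3-month MGT cells, against 2.37 and 3.07 CPM in 3-month LacZ cells. Pecam1 had 60.3 and 52.3 CPM in neonatal MGT cells, against 60.9 and 73 CPM in neonatal LacZ cells. Its difference of 1.16 ± 0.27 (adjusted p = 0.0134) was not called without replicate 1 of 3-month MGT cells (where it was 0.75) or replicate 2 of neonatal LacZ cells. Eng, the most abundant member, is also expressed by fibroblasts and had a difference of -0.05 ± 0.13. The list summed to 533 to 536 CPM in 3-month MGT cells and 489 to 492 CPM in 3-month LacZ cells, against 788 to 851 CPM in neonatal MGT cells and 798 to 846 CPM in neonatal LacZ cells.

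Of the pericyte markers, 1 of 7 tested differed. Cspg4, the proteoglycan NG2, had 30.5 and 23.6 CPM in 3-month MGT cells, against 2.69 and 1.48 CPM in 3-month LacZ cells. The neonatal Cspg4 levels were 218 and 239 CPM with MGT, against 122 and 131 CPM with LacZ, and its difference was 2.87 ± 0.25 (adjusted p = 7.21e-07). It was far lower in 3-month LacZ cells than in any other group, and its difference in CPM was -77.03. Of the macrophage markers 1 of 14 tested differed, 7.14% against 3.7% of all genes. Csf1r, the receptor for the macrophage growth factor Csf1, had 45.99 and 43.1 CPM in 3-month MGT cells, against 18.9 and 21.2 CPM in 3-month LacZ cells. In neonatal cells Csf1r had 18.9 and 21.1 CPM with MGT, against 19.1 and 19.5 CPM with LacZ, so that 3-month MGT cells stood above the other 3 groups. The Csf1r difference was 1.095 ± 0.17 (adjusted p = 1.23e-04). The median over the macrophage list was 0.56, and the list summed to 494 to 506 CPM in 3-month MGT cells and 376 to 381 CPM in 3-month LacZ cells, against 194 to 272 CPM in neonatal MGT cells and 231 to 289 CPM in neonatal LacZ cells. Without replicate 2 of neonatal MGT cells 5 members were called. Of 4 nerve and glial markers tested S100b alone was called, and not in 6 of the 8 fits with a library left out, namely all but those without replicate 1 of 3-month LacZ cells and replicate 2 of neonatal MGT cells. None of 13 blood and lymphoid markers passed the filter on low counts.

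Other genes with large positive differences belonged to no list. Ptprq, a receptor-type phosphatase, had 13.1 and 8.69 CPM in 3-month MGT cells, against 2.11 and 1.08 CPM in 3-month LacZ cells. Ptprq had 16.98 and 18.3 CPM in neonatal MGT cells, against 47.4 and 44.6 CPM in neonatal LacZ cells. MGT cells were above LacZ cells at 3 months and below them in neonatal cells, and the difference was 4.18 ± 0.30 (adjusted p = 2.70e-09). Pappa2, a protease that frees insulin-like growth factors from their binding proteins, fell with MGT in neonatal cells. It had 0.93 and 0.62 CPM in 3-month MGT cells, against 1.22 and 0.625 CPM in 3-month LacZ cells. The neonatal Pappa2 levels were 1.63 and 1.45 CPM with MGT, against 27.7 and 22.8 CPM with LacZ, so that neonatal LacZ cells stood far above the other 3 groups. The Pappa2 difference was 3.81 ± 0.56 (adjusted p = 8.00e-05).

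Hpgd, the dehydrogenase that inactivates prostaglandins (ENSMUSG00000031613, chromosome 8, 56294585 to 56321043, plus strand), showed the same shape, with 4.15 and 4.07 CPM in 3-month MGT cells, against 3.97 and 5.11 CPM in 3-month LacZ cells. In neonatal cells Hpgd had 3.26 and 2.42 CPM with MGT, against 25.2 and 24.5 CPM with LacZ. Its difference was 2.97 ± 0.29 (adjusted p = 1.23e-07). Ptgs2, the cyclooxygenase that starts prostaglandin synthesis, rose with MGT at both ages and more at 3 months. It had 1262 and 1326 CPM in 3-month MGT cells, against 185 and 213 CPM in 3-month LacZ cells. Ptgs2 had 292 and 219 CPM in neonatal MGT cells, against 117 and 128 CPM in neonatal LacZ cells, with 3-month MGT cells far above the rest. The Ptgs2 difference was 1.64 ± 0.15 (adjusted p = 4.02e-07). It was the only 1 of 18 tested NF-kappaB targets to be called, although 5 had an unadjusted p under 0.05, and 4 were called without replicate 1 and 2 without replicate 2 of 3-month LacZ cells.

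Bmp3, a member of the bone morphogenetic protein family that opposes other members, had 24.9 and 22.8 CPM in 3-month MGT cells, against 0.128 and 0.625 CPM in 3-month LacZ cells. The neonatal Bmp3 levels were 6.35 and 6.96 CPM with MGT, against 1.03 and 1.17 CPM with LacZ. The Bmp3 difference was 3.32 ± 0.58 (adjusted p = 0.00107). Klhl30, a kelch-repeat gene, had 28.6 and 27.4 CPM in 3-month MGT cells, against 0.512 and 0.454 CPM in 3-month LacZ cells. In neonatal cells Klhl30 had 33.9 and 43.9 CPM with MGT, against 6.61 and 6.297 CPM with LacZ. The Klhl30 difference was 3.25 ± 0.37 (adjusted p = 1.91e-06). For both, MGT cells were above LacZ cells at each age and 3-month LacZ cells were lowest. Hpx, which encodes the heme-binding protein hemopexin, had 17.7 and 23.4 CPM in 3-month MGT cells, against 0.959 and 1.08 CPM in 3-month LacZ cells. Hpx had 3.204 and 3.21 CPM in neonatal MGT cells, against 0.741 and 1.12 CPM in neonatal LacZ cells. Cd24a, a small surface glycoprotein, had 133 and 146 CPM in 3-month MGT cells, against 6.72 and 11.2 CPM in 3-month LacZ cells. The neonatal Cd24a levels were 56.3 and 56.4 CPM with MGT, against 17.9 and 22.04 CPM with LacZ. Their differences were 2.55 ± 0.44 (adjusted p = 5.89e-04) and 2.46 ± 0.29 (adjusted p = 5.21e-04), and 3-month MGT cells were the highest group for each.

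Among chemokines, cytokines and acute-phase genes 5 of 37 tested had a positive and 1 a negative difference, and the median was near 0. Ccl20, the ligand of the chemokine receptor Ccr6, had 16.1 and 15.4 CPM in 3-month MGT cells, against 6.01 and 6.64 CPM in 3-month LacZ cells. In neonatal cells Ccl20 had 14.8 and 15.02 CPM with MGT, against 25.98 and 24.2 CPM with LacZ. It rose with MGT at 3 months and fell in neonatal cells, where LacZ cells were highest, and the difference was 2.06 ± 0.20 (adjusted p = 1.11e-07). Csf3, the granulocyte growth factor, had 6.01 and 6.96 CPM in 3-month MGT cells, against 2.88 and 3.805 CPM in 3-month LacZ cells. Csf3 had 0.675 and 1.33 CPM in neonatal MGT cells, against 3.704 and 3.68 CPM in neonatal LacZ cells. Its changes were opposite, 0.95 ± 0.28 at 3 months and -1.88 ± 0.35 in neonatal cells, and the difference was 2.83 ± 0.45 (adjusted p = 2.34e-04). Lcn2, an iron-binding acute-phase protein, had 144 and 151 CPM in 3-month MGT cells, against 135 and 148 CPM in 3-month LacZ cells. The neonatal Lcn2 levels were 40.1 and 39.5 CPM with MGT, against 63.4 and 65.95 CPM with LacZ. The Lcn2 difference was 0.76 ± 0.12 (adjusted p = 2.73e-04). Saa3, a serum amyloid A gene with close paralogs, had 437 and 637 CPM in 3-month MGT cells, against 96.8 and 104 CPM in 3-month LacZ cells. In neonatal cells Saa3 had 129 and 152 CPM with MGT, against 127 and 96.3 CPM with LacZ. Only its 3-month MGT libraries stood apart, and the difference of 2.08 ± 0.27 (adjusted p = 0.00251) was not called without replicate 2 of 3-month LacZ cells (adjusted p = 0.0507). In the complement list 1 of 18 tested differed, 5.56% against 3.7% of all genes. It was Cd55, which protects cells from complement, with 241 and 267 CPM in 3-month MGT cells, against 104 and 111 CPM in 3-month LacZ cells. Cd55 had 70.9 and 49.3 CPM in neonatal MGT cells, against 50.7 and 54.1 CPM in neonatal LacZ cells. The Cd55 difference was 1.04 ± 0.17 (adjusted p = 5.71e-04). The abundant Serping1 fell with MGT at both ages, and its difference was 0.03 ± 0.13. Without replicate 1 of 3-month LacZ cells or replicate 2 of neonatal MGT cells 2 complement genes were called.

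Interferon-stimulated genes fell with MGT, and 12 of 39 did so by a larger ratio at 3 months. Of 39 tested, 38 were lower in MGT than in LacZ cells at 3 months, where 8.39% of all genes were. In neonatal cells 15 were lower, where 3.24% of all were, and 0 were higher at either age. The median effect was -1.30 at 3 months and -0.51 in neonatal cells. The difference was negative for 12, where it was for 1.41% of all genes, and positive for 0, with a median of -0.67. The list summed to 2638 to 2678 CPM in 3-month MGT cells and 6482 to 6604 CPM in 3-month LacZ cells, against 3749 to 4472 CPM in neonatal MGT cells and 5718 to 6040 CPM in neonatal LacZ cells. So the LacZ cells of the 2 ages were closer to each other than the MGT cells were. The number of called members was unstable. It was 23 in a fit of only these 8 libraries and 25 without the filter on low counts, 11 with DESeq2, 4 without either 3-month MGT library, 7 without replicate 2 of 3-month LacZ cells, 6 without replicate 1 of neonatal MGT cells, and 5 and 7 without replicates 1 and 2 of neonatal LacZ cells.

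Mx2, an interferon-induced antiviral GTPase (ENSMUSG00000023341, chromosome 16, 97535308 to 97560900, plus strand), had 11.2 and 9.997 CPM in 3-month MGT cells, against 49.1 and 44.4 CPM in 3-month LacZ cells. The neonatal Mx2 levels were 26.6 and 24.5 CPM with MGT, against 35.9 and 42.5 CPM with LacZ. The 3-month MGT cells were lowest, the neonatal MGT cells intermediate, and the LacZ cells highest. Its difference was -1.52 ± 0.25 (adjusted p = 9.79e-04). Dhx58, a helicase that regulates viral RNA sensing (ENSMUSG00000017830, chromosome 11, 100694884 to 100704271, minus strand), had 21.1 and 23.4 CPM in 3-month MGT cells, against 65.2 and 63.5 CPM in 3-month LacZ cells. In neonatal cells Dhx58 had 42.7 and 31.8 CPM with MGT, against 53.7 and 51.9 CPM with LacZ, in the same order of groups. The Dhx58 difference was -1.03 ± 0.18 (adjusted p = 5.31e-04). Mx1, the paralog of Mx2, had 1.18 and 0.896 CPM in 3-month MGT cells, against 17.5 and 12.4 CPM in 3-month LacZ cells. Mx1 had 3.54 and 3.82 CPM in neonatal MGT cells, against 4.56 and 8.48 CPM in neonatal LacZ cells. The Mx1 difference was -2.998 ± 0.46 (adjusted p = 2.34e-04). Trim30a, with close paralogs, had 87.3 and 79.2 CPM in 3-month MGT cells, against 229.5 and 213 CPM in 3-month LacZ cells. The neonatal Trim30a levels were 115 and 90.7 CPM with MGT, against 152 and 165 CPM with LacZ. Its difference of -0.79 ± 0.17 (adjusted p = 0.0069) was not called without replicate 2 of 3-month MGT cells or replicate 1 of neonatal LacZ cells.

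Antigen presentation genes gave 3 negative differences among 19 tested, with a median of -0.38, and 13 fell at 3 months against 7 in neonatal cells. Tap1, a subunit of the peptide transporter that loads class I molecules (ENSMUSG00000037321, chromosome 17, 34187553 to 34197225, plus strand), had 33.7 and 33.4 CPM in 3-month MGT cells, against 86.1 and 86.1 CPM in 3-month LacZ cells. In neonatal cells Tap1 had 70.05 and 65.3 CPM with MGT, against 80.1 and 92.95 CPM with LacZ. The LacZ cells of the 2 ages were alike and the 3-month MGT cells lowest, and the difference was -1.005 ± 0.14 (adjusted p = 4.86e-05). Tap2, its partner, had 30.8 and 31.4 CPM in 3-month MGT cells, against 62.3 and 64.5 CPM in 3-month LacZ cells. Tap2 had 33.6 and 30.8 CPM in neonatal MGT cells, against 36.98 and 38.5 CPM in neonatal LacZ cells. The Tap2 difference was -0.80 ± 0.14 (adjusted p = 7.54e-04). H2-Q4, a class I gene with near-identical neighbours whose reads may be split among them, had a difference of -0.69 ± 0.15 (adjusted p = 0.00441) and was not called without replicate 2 of 3-month MGT cells or replicate 1 of neonatal MGT cells. B2m, the shared class I light chain, had 1240 and 1179.8 CPM in 3-month MGT cells, against 1452 and 1865 CPM in 3-month LacZ cells. The neonatal B2m levels were 1605 and 1567 CPM with MGT, against 1786 and 1771 CPM with LacZ. Its change at 3 months was -0.45, and its difference of -0.29 ± 0.14 did not pass the test (adjusted p = 0.345). Without replicate 1 of 3-month LacZ cells 11 members were called. Trim21, a cytosolic antibody receptor that interferon also induces, was in no list and had 13.6 and 13.9 CPM in 3-month MGT cells, against 34.9 and 34.6 CPM in 3-month LacZ cells. In neonatal cells Trim21 had 29.5 and 29.9 CPM with MGT, against 32.5 and 38.2 CPM with LacZ. Its 3-month MGT libraries stood far below the other 6, and the difference was -1.08 ± 0.16 (adjusted p = 1.24e-04).

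**Figure D3:**
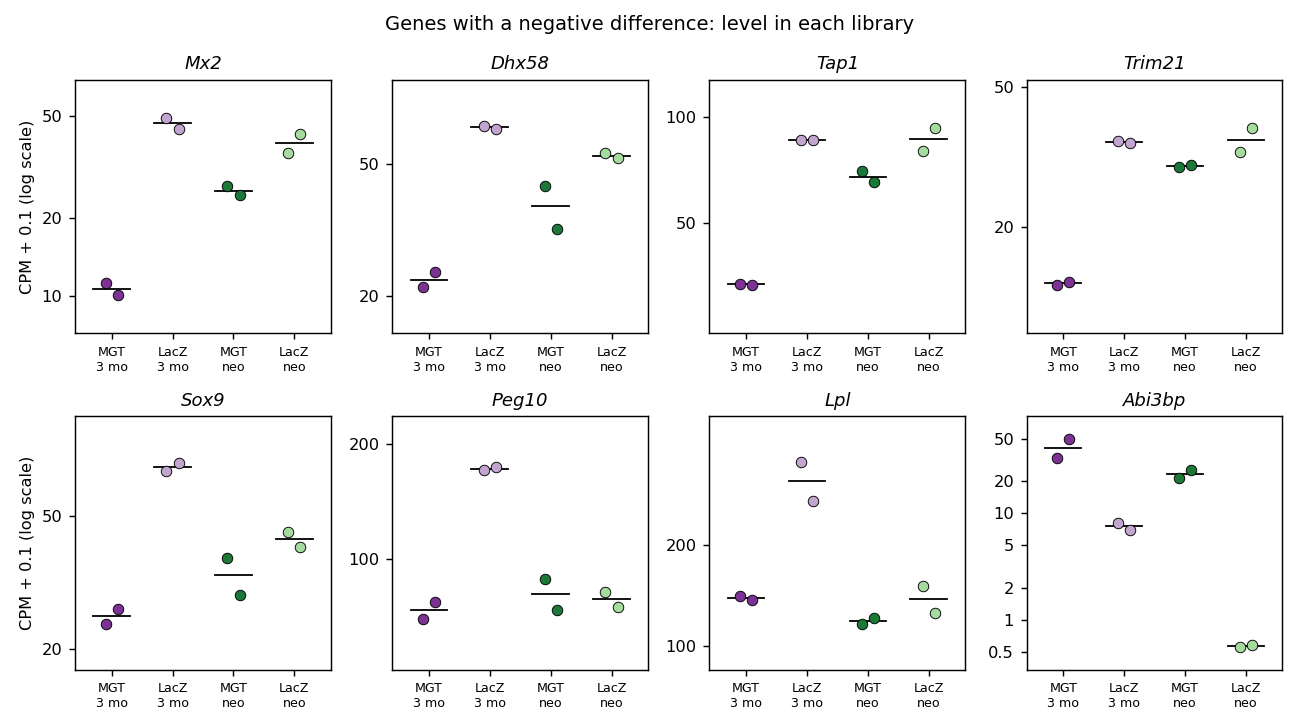
Level of 8 genes with a negative difference in each of the 8 libraries (points; the bar is the mean of the 2), as CPM + 0.1 on a log axis, with 3-month MGT, 3-month LacZ, neonatal MGT and neonatal LacZ cells from left to right. In the first 4 panels the 3-month MGT cells are lowest and LacZ cells of the 2 ages lie near each other, while Sox9, Peg10 and Lpl are highest in 3-month LacZ cells and Abi3bp lowest in neonatal LacZ cells.

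Upstream sequences were compared because the factors given to the cells bind DNA at known short motifs, and because interferon acts through another. From RefSeq (GRCm38.p6), the 250 bases before the start were searched on both strands for 9177 tested genes with exactly 1 entry in that table. The T-box motif AGGTGTG was in 3.585% of all of these, in 12 of 199 genes with a positive difference (6.03%) and in 3 of 132 with a negative one (2.273%). The GATA motif AGATAA was in 5.688%, 6.533% and 5.303%, and the MEF2 motif TAAAAATAG in 0.305%, 0 of 199 and 1 of 132. Among 824 genes higher with MGT at 3 months, the T-box motif was in 4.733%, the GATA motif in 6.675% and the MEF2 motif in 0.485%. The core of the interferon response element, GAAANNGAA, which was added after the values were seen, was in 6.168% of all, in 10 of 199 positive (5.025%) and 18 of 132 negative ones (13.636%), and in 14 of 23 interferon-stimulated genes with a promoter in the table. The motifs do not overlap in the promoters shown, and a match is a description of letters, not a bound site.
Krt7 and Ccl20 are shown for a T-box match in genes that MGT changed in opposite directions at the 2 ages, and Ifit3 and Rsad2 for the interferon core in genes with a negative difference. Each runs 5′ to 3′ up to the base before the RefSeq start, with matches in capitals. The Krt7 stretch lies inside the gene as the deposited table places it (chromosome 15, 101411043 to 101430313, plus strand), so it is upstream of the RefSeq start only.
Krt7 (chr15:101412153-101412402, plus strand): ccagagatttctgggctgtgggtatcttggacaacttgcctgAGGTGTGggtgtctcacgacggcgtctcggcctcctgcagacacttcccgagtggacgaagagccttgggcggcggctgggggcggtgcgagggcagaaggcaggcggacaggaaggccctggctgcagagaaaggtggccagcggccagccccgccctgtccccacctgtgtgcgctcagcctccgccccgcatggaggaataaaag
Ccl20 (chr1:83116516-83116765, plus strand): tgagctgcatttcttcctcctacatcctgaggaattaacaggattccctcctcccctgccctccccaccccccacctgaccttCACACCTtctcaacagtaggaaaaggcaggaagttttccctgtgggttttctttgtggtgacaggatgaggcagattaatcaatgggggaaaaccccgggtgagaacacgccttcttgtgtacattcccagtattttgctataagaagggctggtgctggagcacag
Ifit3 (chr19:34583279-34583528, plus strand): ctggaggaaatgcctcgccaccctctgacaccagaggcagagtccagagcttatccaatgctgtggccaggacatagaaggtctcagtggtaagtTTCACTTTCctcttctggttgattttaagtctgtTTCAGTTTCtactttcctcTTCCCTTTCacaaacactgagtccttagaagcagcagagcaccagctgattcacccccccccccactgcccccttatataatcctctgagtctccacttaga
Rsad2 (chr12:26456453-26456702, minus strand): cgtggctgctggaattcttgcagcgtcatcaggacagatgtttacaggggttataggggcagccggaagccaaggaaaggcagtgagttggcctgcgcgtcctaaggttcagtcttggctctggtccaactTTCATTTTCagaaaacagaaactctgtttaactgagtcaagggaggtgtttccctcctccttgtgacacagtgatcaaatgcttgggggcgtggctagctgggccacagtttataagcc
Krt7 carries the T-box letters at -208 and Ccl20 their reverse complement at -167. Ifit3, an interferon-induced antiviral protein with near-identical neighbours, carries the reverse complement of the interferon core at -155, -121 and -102, and Rsad2, the antiviral enzyme viperin, at -119. These 2 genes, chosen for the letters after the values were seen, had differences of -1.98 ± 0.34 (adjusted p = 0.0236) and -1.52 ± 0.29 (adjusted p = 0.0221). Ifit3 was not called without either 3-month MGT library, replicate 2 of 3-month LacZ cells, replicate 1 of neonatal MGT cells or either neonatal LacZ library (adjusted p 0.0676 to 0.111), nor without the filter on low counts (adjusted p = 0.0537). Rsad2 was not called without either library of 3-month MGT, 3-month LacZ or neonatal MGT cells (adjusted p 0.0572 to 0.103).

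Genes with large negative differences outside the interferon group were of several kinds. Abi3bp, a matrix protein (ENSMUSG00000035258, chromosome 16, 56477878 to 56690135, plus strand), rose with MGT at both ages and by a larger ratio in neonatal cells. It had 32.9 and 49.6 CPM in 3-month MGT cells, against 8.06 and 6.81 CPM in 3-month LacZ cells. Abi3bp had 21.4 and 25.3 CPM in neonatal MGT cells, against 0.456 and 0.48 CPM in neonatal LacZ cells, the neonatal LacZ cells being near 0. The Abi3bp difference was -3.15 ± 0.38 (adjusted p = 5.70e-06), although in CPM its gain was larger at 3 months. Sox9, a transcription factor of cartilage and of scar-forming fibroblasts (ENSMUSG00000000567, chromosome 11, 112782224 to 112787760, plus strand), had 23.7 and 26.2 CPM in 3-month MGT cells, against 68.2 and 72.1 CPM in 3-month LacZ cells. The neonatal Sox9 levels were 37.4 and 28.9 CPM with MGT, against 44.6 and 40.2 CPM with LacZ. The 3-month LacZ cells were highest and the 3-month MGT cells lowest, and the difference was -1.14 ± 0.17 (adjusted p = 8.96e-05). S1pr3, a receptor for sphingosine 1-phosphate, had 61.6 and 57.6 CPM in 3-month MGT cells, against 134 and 103 CPM in 3-month LacZ cells. In neonatal cells S1pr3 had 50.5 and 46.1 CPM with MGT, against 46.9 and 46.5 CPM with LacZ. It was highest in 3-month LacZ cells. The S1pr3 difference was -1.04 ± 0.15 (adjusted p = 4.68e-05).

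Scn7a, the sodium-sensing channel Nax, had 7.69 and 7.38 CPM in 3-month MGT cells, against 39.5 and 30.1 CPM in 3-month LacZ cells. Scn7a had 4.104 and 3.75 CPM in neonatal MGT cells, against 8.15 and 7.63 CPM in neonatal LacZ cells. The Scn7a difference was -1.201 ± 0.25 (adjusted p = 0.00411). P4ha3, a prolyl hydroxylase of collagen, had 15 and 17.03 CPM in 3-month MGT cells, against 49.1 and 36.2 CPM in 3-month LacZ cells. The neonatal P4ha3 levels were 31.3 and 27.8 CPM with MGT, against 36.2 and 38.1 CPM with LacZ. The P4ha3 difference was -1.08 ± 0.19 (adjusted p = 5.89e-04). For Scn7a the 3-month LacZ cells stood far above the rest, and for P4ha3 the 3-month MGT cells stood below the other groups. Ccn3, a matricellular protein, had 10.3 and 9.72 CPM in 3-month MGT cells, against 22.8 and 25.6 CPM in 3-month LacZ cells. In neonatal cells Ccn3 had 6.35 and 6.06 CPM with MGT, against 7.12 and 7.36 CPM with LacZ. The Ccn3 difference was -1.05 ± 0.22 (adjusted p = 0.00459). Emb, the glycoprotein embigin, had 18.5 and 23.5 CPM in 3-month MGT cells, against 33.96 and 36.3 CPM in 3-month LacZ cells. Emb had 6.97 and 7.57 CPM in neonatal MGT cells, against 5.53 and 6.08 CPM in neonatal LacZ cells. The Emb difference was -1.07 ± 0.21 (adjusted p = 0.00276). Megf10, an engulfment receptor, had 15.1 and 15.4 CPM in 3-month MGT cells, against 32.2 and 27.8 CPM in 3-month LacZ cells. The neonatal Megf10 levels were 60.2 and 52.6 CPM with MGT, against 55.6 and 52.99 CPM with LacZ. It was lower with MGT at 3 months, and the difference was -1.03 ± 0.16 (adjusted p = 1.79e-04). Trabd2b, a protease that inactivates Wnt proteins, had 18.2 and 15.2 CPM in 3-month MGT cells, against 22.1 and 17.4 CPM in 3-month LacZ cells. In neonatal cells Trabd2b had 24.2 and 24.2 CPM with MGT, against 13.6 and 14.5 CPM with LacZ. The Trabd2b difference was -1.03 ± 0.21 (adjusted p = 0.0043). Serpina3g, a protease inhibitor whose reads may be shared with near-identical paralogs, had a difference of -1.43 ± 0.23 (adjusted p = 5.16e-04).

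Fibroblast identity genes that passed the test for MGT mostly fell, at both ages. Of 25 tested, 14 fell at 3 months and 12 in neonatal cells, and the difference was positive for 1 and negative for 4, with a median of -0.27. Thy1, a surface protein used to sort fibroblasts, rose with MGT. It had 513 and 589 CPM in 3-month MGT cells, against 158 and 172 CPM in 3-month LacZ cells. Thy1 had 430 and 448 CPM in neonatal MGT cells, against 275 and 263 CPM in neonatal LacZ cells. It was lowest in 3-month LacZ cells. The Thy1 difference was 1.03 ± 0.12 (adjusted p = 2.88e-06). Ly6a, the stem cell antigen Sca-1, had 88.8 and 96.04 CPM in 3-month MGT cells, against 325 and 406 CPM in 3-month LacZ cells. The neonatal Ly6a levels were 14 and 12.7 CPM with MGT, against 27.3 and 26.04 CPM with LacZ. It was far higher in the 3-month cells and its log2 change was -1.98 there against -0.999 in neonatal cells. The Ly6a difference was -0.99 ± 0.16 (adjusted p = 2.34e-04). Mfap4, a microfibril protein, had 6.26 and 7.03 CPM in 3-month MGT cells, against 25.5 and 25.2 CPM in 3-month LacZ cells. In neonatal cells Mfap4 had 10.6 and 9.205 CPM with MGT, against 19.2 and 11.6 CPM with LacZ. The Mfap4 difference was -1.29 ± 0.27 (adjusted p = 0.00403). Ly6a and the related Ly6c1 have near copies, and Ly6c1, whose difference was -1.45 ± 0.37 (adjusted p = 0.0233), was not called in 5 of the 8 fits with a library left out, namely those without either 3-month MGT library, either neonatal MGT library or replicate 1 of neonatal LacZ cells. The list had 3 calls without either 3-month MGT library or without replicate 1 of neonatal LacZ cells, and 8 without replicate 1 of 3-month LacZ cells.

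Genes of the myofibroblast and TGF-beta response, which mark activated fibroblasts, had 6 positive and 1 negative difference among 28 tested, and a median of -0.05. Tnc, the matrix protein tenascin C, had 3159.7 and 3028 CPM in 3-month MGT cells, against 1733 and 1312 CPM in 3-month LacZ cells. Tnc had 952 and 858 CPM in neonatal MGT cells, against 867 and 932 CPM in neonatal LacZ cells. It rose with MGT at 3 months, where its change was 1.02 ± 0.10, and not in neonatal cells (0.01 ± 0.10), and the difference was 1.01 ± 0.14 (adjusted p = 4.08e-05). Tgfb2, a TGF-beta ligand, had 90.7 and 89.7 CPM in 3-month MGT cells, against 20.5 and 18 CPM in 3-month LacZ cells. The neonatal Tgfb2 levels were 151 and 212 CPM with MGT, against 74.8 and 71.3 CPM with LacZ. The Tgfb2 difference was 0.92 ± 0.17 (adjusted p = 0.00245). Cthrc1, a secreted protein of activated fibroblasts, had 196 and 224 CPM in 3-month MGT cells, against 29.1 and 38.6 CPM in 3-month LacZ cells. In neonatal cells Cthrc1 had 115 and 121 CPM with MGT, against 32.3 and 30.9 CPM with LacZ. The Cthrc1 difference was 0.72 ± 0.16 (adjusted p = 0.00592). Postn, the matrix protein periostin, had 188 and 159 CPM in 3-month MGT cells, against 306 and 265 CPM in 3-month LacZ cells. Postn had 2115 and 2092 CPM in neonatal MGT cells, against 2276 and 2273 CPM in neonatal LacZ cells. It fell at 3 months alone and its difference was -0.61 ± 0.13 (adjusted p = 0.00521). Of these, only the Tnc call outlasted the loss of each library: Tgfb2 was not called without replicate 2 of 3-month LacZ cells, nor Cthrc1 and Postn without replicate 2 of 3-month MGT cells. The count of 7 was 2 without that library and 4 without replicate 1 of 3-month MGT cells, replicate 1 of neonatal MGT cells, or either neonatal LacZ library.

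Of 35 collagen and matrix genes tested, 17 fell and 5 rose with MGT at 3 months, and 14 fell and 0 rose in neonatal cells, with 3 positive differences and 1 negative one. Lum, the proteoglycan lumican, had 17.9 and 17.9 CPM in 3-month MGT cells, against 30.4 and 30.1 CPM in 3-month LacZ cells. The neonatal Lum levels were 9.11 and 7.15 CPM with MGT, against 38.3 and 36.98 CPM with LacZ. Its log2 change was -0.76 at 3 months against -2.21 in neonatal cells, a difference of 1.45 ± 0.20 (adjusted p = 2.43e-05). Mgp, an inhibitor of calcification, had 296 and 345 CPM in 3-month MGT cells, against 241 and 241 CPM in 3-month LacZ cells. In neonatal cells Mgp had 203 and 189 CPM with MGT, against 252 and 237 CPM with LacZ. It was higher with MGT at 3 months and lower in neonatal cells, and the difference was 0.73 ± 0.12 (adjusted p = 3.69e-04). Dcn, the proteoglycan decorin, had a difference of 0.63 ± 0.13 (adjusted p = 0.00403), which was not called without replicate 2 of 3-month MGT cells. Without replicates 1 and 2 of 3-month LacZ cells 10 and 7 members were called, and 7 without the filter on low counts.

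Among matrix metalloproteinases and their inhibitors 1 of 21 tested had a positive and 3 a negative difference. The positive one, Mmp8, a collagenase of neutrophils, was 0.81 ± 0.23 (adjusted p = 0.0455). Mmp8 was not called in 5 of the 8 fits with a library left out, namely those without either 3-month MGT library, replicate 1 of neonatal MGT cells or either neonatal LacZ library, nor in the 8 libraries alone or with the replicate block. Adamts1, a secreted protease of proteoglycans, had 219 and 208 CPM in 3-month MGT cells, against 260.3 and 258 CPM in 3-month LacZ cells. Adamts1 had 226 and 235 CPM in neonatal MGT cells, against 192 and 173 CPM in neonatal LacZ cells. It was lower with MGT at 3 months and higher in neonatal cells, and the difference was -0.62 ± 0.11 (adjusted p = 0.00139). Adamts2, which trims procollagen, and Adamts5, which cuts aggrecan, had differences of -0.65 ± 0.14 (adjusted p = 0.00619) and -0.59 ± 0.13 (adjusted p = 0.0075). Neither was called in all fits: Adamts2 lost its call without replicate 1 of 3-month MGT cells, and Adamts5 without replicate 1 of neonatal MGT cells or replicate 2 of neonatal LacZ cells. The list had 2 calls without replicate 1 of 3-month MGT cells or replicate 2 of neonatal LacZ cells and 7 without either 3-month LacZ library.

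Imprinted and fetal growth genes gave 4 positive and 2 negative differences among 21 tested. Peg3, a zinc finger protein expressed from the paternal allele, had 83.1 and 85.4 CPM in 3-month MGT cells, against 30 and 25.6 CPM in 3-month LacZ cells. The neonatal Peg3 levels were 175 and 153 CPM with MGT, against 184 and 179 CPM with LacZ. It rose with MGT at 3 months, where LacZ cells were lowest, and the difference was 1.75 ± 0.16 (adjusted p = 5.43e-08). Peg10, an imprinted gene derived from a retrotransposon (ENSMUSG00000092035, chromosome 6, 4747306 to 4760517, plus strand), had 69.5 and 76.9 CPM in 3-month MGT cells, against 171 and 174 CPM in 3-month LacZ cells. In neonatal cells Peg10 had 88.3 and 73.5 CPM with MGT, against 81.7 and 74.6 CPM with LacZ. Its 3-month LacZ cells were the highest, the other 3 groups overlapped, and the difference was -1.29 ± 0.16 (adjusted p = 1.02e-05). Mest, also imprinted, had 2.42 and 1.52 CPM in 3-month MGT cells, against 1.66 and 2.78 CPM in 3-month LacZ cells. Mest had 49.7 and 46.3 CPM in neonatal MGT cells, against 21.3 and 22.6 CPM in neonatal LacZ cells. Its MGT cells lay above LacZ cells at the neonatal age, and the difference was -1.305 ± 0.31 (adjusted p = 0.0134). Gpc3, a growth-limiting glypican on the X chromosome, had 2.29 and 2.07 CPM in 3-month MGT cells, against 0.767 and 1.36 CPM in 3-month LacZ cells. The neonatal Gpc3 levels were 30.4 and 33.8 CPM with MGT, against 56.1 and 43.8 CPM with LacZ. It rose with MGT at 3 months and fell in neonatal cells, and the difference was 1.65 ± 0.36 (adjusted p = 0.00688). The Gpc3 call was lost without replicate 1 of 3-month MGT cells, and the Mest call without replicate 2 of 3-month MGT cells, replicate 2 of 3-month LacZ cells or replicate 1 of neonatal LacZ cells, and the list had 3 calls without replicate 2 of 3-month MGT cells or replicate 1 of neonatal LacZ cells.

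Of 43 metabolic genes tested 5 were called, 9.09% of the oxidative and fatty acid genes and 14.3% of the glycolytic ones, against 3.7% of all genes. Pdk4, the kinase that shuts pyruvate out of oxidation, had 52.2 and 60.6 CPM in 3-month MGT cells, against 7.74 and 8.75 CPM in 3-month LacZ cells. In neonatal cells Pdk4 had 23.5 and 21.9 CPM with MGT, against 14.5 and 10.7 CPM with LacZ. It was highest in 3-month MGT cells, and the difference was 1.92 ± 0.19 (adjusted p = 2.46e-07). Lpl, the lipase that frees fatty acids for uptake, had 141 and 137 CPM in 3-month MGT cells, against 355 and 271 CPM in 3-month LacZ cells. Lpl had 116 and 121 CPM in neonatal MGT cells, against 151 and 125 CPM in neonatal LacZ cells, with only the 3-month LacZ cells apart. The Lpl difference was -0.96 ± 0.17 (adjusted p = 0.00293). These were the 2 called of 22 tested oxidative and fatty acid genes. Of 21 glycolytic genes 1 had a positive and 2 a negative difference, with 0.77 ± 0.21 (adjusted p = 0.0375) for Eno3, -0.57 ± 0.12 (adjusted p = 0.0062) for Pfkl and -0.54 ± 0.15 (adjusted p = 0.0399) for Slc16a3. None of the 3 was called in all fits with a library left out. Slc16a3 was also not called with DESeq2 (adjusted p = 0.0747), in the 8 libraries alone (adjusted p = 0.053) or with the replicate block, and Eno3 not in the 8 libraries alone (adjusted p = 0.0691). The count was 0 without replicate 1 of neonatal MGT cells or of neonatal LacZ cells, 1 without either 3-month MGT library and 6 without replicate 1 of 3-month LacZ cells.

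Of 20 immediate early genes 2 had a negative difference. Nr4a1, a nuclear receptor of the same family as Nr4a3, had 244 and 285 CPM in 3-month MGT cells, against 273 and 309.8 CPM in 3-month LacZ cells. The neonatal Nr4a1 levels were 138 and 99.98 CPM with MGT, against 46.6 and 50.3 CPM with LacZ. It rose with MGT in neonatal cells (1.299 ± 0.17), and the difference was -1.44 ± 0.23 (adjusted p = 0.00433), which was not called without replicate 2 of 3-month LacZ cells (adjusted p = 0.116). Egr2, a zinc finger factor, had a difference of -0.62 ± 0.14 (adjusted p = 0.00645) and was not called without replicate 2 of neonatal LacZ cells. In the Notch and Wnt list 2 of 28 tested had a positive and 1 a negative difference. Wnt5a, a Wnt ligand, had 25.4 and 25.7 CPM in 3-month MGT cells, against 31.98 and 28.8 CPM in 3-month LacZ cells. In neonatal cells Wnt5a had 13.9 and 15.6 CPM with MGT, against 38.9 and 35.9 CPM with LacZ. It was lower with MGT in neonatal cells, and the difference was 1.09 ± 0.18 (adjusted p = 3.77e-04). Dkk3, a secreted protein related to Wnt inhibitors, had 10.3 and 12.48 CPM in 3-month MGT cells, against 30.8 and 30.4 CPM in 3-month LacZ cells. Dkk3 had 20.1 and 21.5 CPM in neonatal MGT cells, against 28.3 and 27.9 CPM in neonatal LacZ cells. The Dkk3 difference was -0.996 ± 0.19 (adjusted p = 0.0019). Wnt11 had a difference of 1.001 ± 0.26 (adjusted p = 0.0228), which was lost in the 8 libraries alone (adjusted p = 0.0618) and without replicate 1 of 3-month MGT cells, replicate 2 of 3-month LacZ cells, replicate 1 of neonatal MGT cells or replicate 1 of neonatal LacZ cells. Without replicate 1 of 3-month LacZ cells 7 members of this list and 4 immediate early genes were called, and 1 immediate early gene without replicate 2 of 3-month LacZ or of neonatal LacZ cells.

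Cell division genes had no called difference, where 3.7% of all genes had one. With MGT 16 of 30 mitotic and 7 of 30 DNA replication genes fell at 3 months, where 8.39% of all genes did, and 0 of either list fell in neonatal cells, where 3.24% of all did. The median effect was -0.32 at 3 months and -0.15 in neonatal cells for mitotic genes, and -0.23 and -0.12 at the same ages for replication genes. In edgeR's quasi-likelihood test 0 of 30 mitotic and 0 of 30 DNA replication genes were called, as with DESeq2, and 8 and 1 had an unadjusted p under 0.05. Without replicate 1 of 3-month LacZ cells 6 mitotic and 2 replication genes were called, and 1 mitotic gene without replicate 1 of neonatal MGT cells. The median differences were -0.17 and -0.08. Top2a, needed to separate chromosomes, had 260 and 235 CPM in 3-month MGT cells, against 299.9 and 252 CPM in 3-month LacZ cells. The neonatal Top2a levels were 257 and 228 CPM with MGT, against 265 and 269.6 CPM with LacZ, and its difference was -0.02 ± 0.13. Pcna, the sliding clamp of replication, had 123 and 126 CPM in 3-month MGT cells, against 135 and 159 CPM in 3-month LacZ cells. In neonatal cells Pcna had 127 and 133 CPM with MGT, against 134 and 141 CPM with LacZ, and its difference was -0.16 ± 0.13. Of 24 CDK inhibitors and p53 targets Plk2, a kinase induced by p53, alone was called (3 and 2 without replicates 1 and 2 of 3-month LacZ cells), with 489 and 463 CPM in 3-month MGT cells, against 302 and 286 CPM in 3-month LacZ cells. Plk2 had 353 and 355 CPM in neonatal MGT cells, against 329.7 and 337 CPM in neonatal LacZ cells. The Plk2 difference was 0.61 ± 0.11 (adjusted p = 0.00142). Cdkn1a, the inhibitor p21, had 546 and 526 CPM in 3-month MGT cells, against 441 and 470.1 CPM in 3-month LacZ cells. The neonatal Cdkn1a levels were 671 and 701 CPM with MGT, against 627 and 616 CPM with LacZ, and its difference was 0.09 ± 0.11 (adjusted p = 0.795). Of 28 chromatin and splicing genes known as barriers to reprogramming 0 were called by edgeR or DESeq2, and 4 had an unadjusted p under 0.05, although 5 were called without replicate 1 of 3-month LacZ cells.

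**Figure D4:**
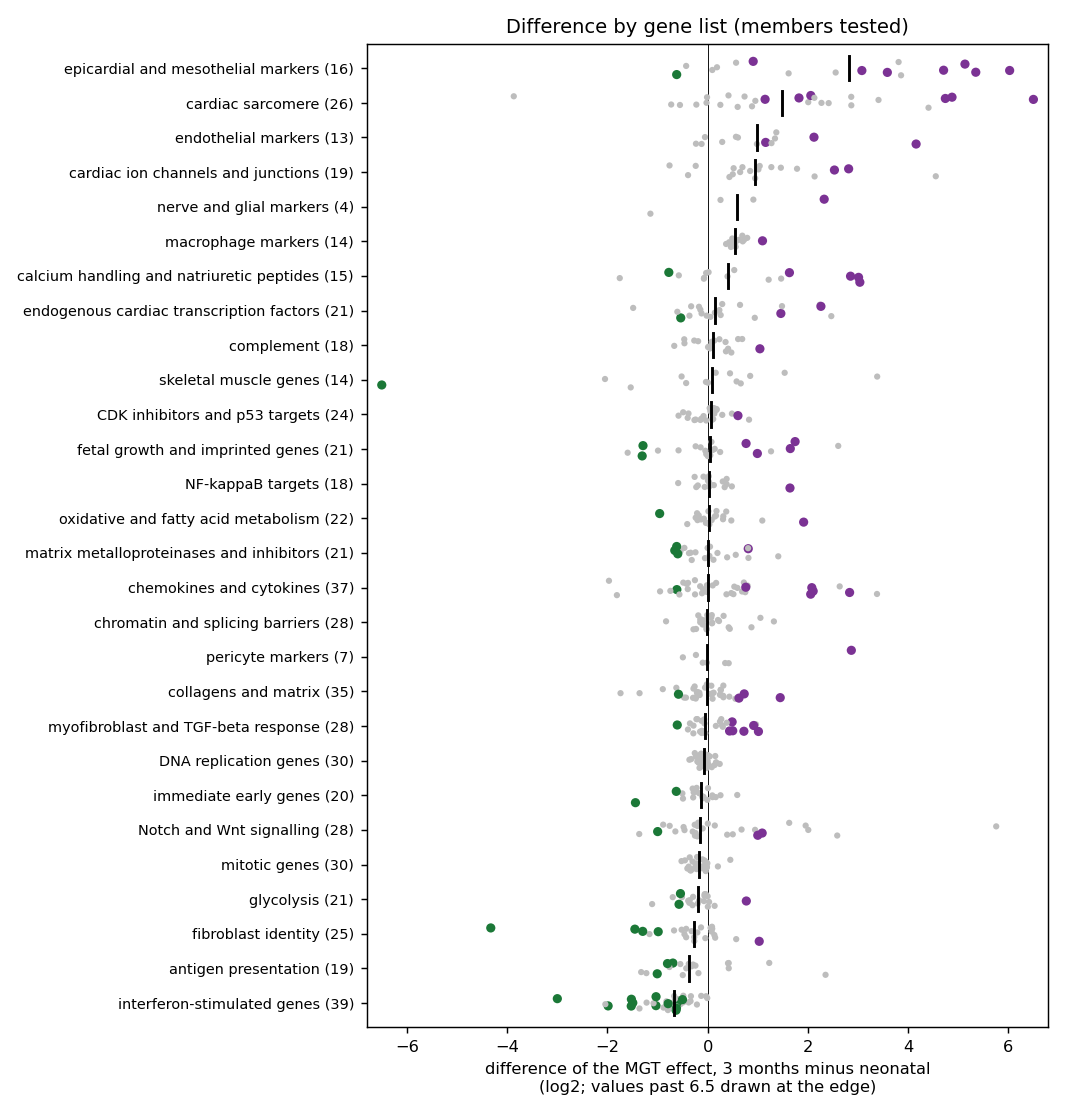
Difference of the MGT effect, 3 months minus neonatal, on the log2 scale, for each tested member (points) of 28 gene lists, sorted by their median (bar), with the number tested in brackets; purple and green members were called positive and negative, grey ones were not called. The epicardial and mesothelial list has the highest median, 2.82, and the interferon-stimulated genes the lowest, -0.67.

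Cells of 18 months enter the difference only through the filter on low counts, the size factors and the shared estimate of the spread. They give the effect of MGT at a further age, and any comparison with 3 months or neonatal cells shares those libraries. Upk1b had 26.5 and 30.6 CPM in 18-month MGT cells, against 1.62 and 2.18 CPM in 18-month LacZ cells, a change of 3.91 ± 0.16. Msln had 25.04 and 26.9 CPM in 18-month MGT cells, against 1.45 and 1.06 CPM in 18-month LacZ cells, a change of 4.36 ± 0.17. Tnnt2 had 248 and 254 CPM in 18-month MGT cells, against 4.11 and 2.49 CPM in 18-month LacZ cells, a change of 6.24 ± 0.26. In each of these the 18-month MGT cells lay above the LacZ cells, as at 3 months, and the 18-month minus 3-month difference was -1.39 ± 0.32 (adjusted p = 0.0166) for Upk1b, -1.01 ± 0.33 (adjusted p = 0.125) for Msln and -0.42 ± 0.42 (adjusted p = 0.774) for Tnnt2. For interferon-stimulated genes the LacZ cells of 18 months were low: Mx2 had 1.26 and 1.94 CPM in 18-month MGT cells, against 1.45 and 3.61 CPM in 18-month LacZ cells. The list summed to 564 to 612 CPM in 18-month MGT cells and 614 to 851 CPM in 18-month LacZ cells. Of 39 tested, 4 fell with MGT at 18 months, where 1318 of all genes did (8.05%), and for 12 the effect at 18 months was above that at 3 months, against 255 of all genes (1.56%). Tap1 had 19.1 and 22.1 CPM in 18-month MGT cells, against 19.1 and 22.02 CPM in 18-month LacZ cells, and an 18-month minus 3-month difference of 1.36 ± 0.16 (adjusted p = 1.74e-05).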

How the data were processed

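RNA-seq counts per gene came from the authors' deposited table of MGT and LacZ cells of 3 ages, in 12 libraries, 2 per group. Per the submitters' processing notes, reads were trimmed with Trimmomatic 0.36 and counted with featureCounts of Subread 1.5.1 on mm10. Per the labels' protocols, rRNA was depleted and a stranded kit used. The aligner, the annotation and the strand setting of the counting are not given in the sources used here, so reads of overlapping antisense genes may be shared. The deposited FPKM values beside the counts, in 12 columns, were not analysed.

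Counts were fitted with edgeR 4.0.16 in R 4.3.3 (filterByExpr by group, TMM, robust quasi-likelihood test, 1 coefficient per group over all 12 libraries, which share 1 estimate of the spread). The interaction contrast was adjusted over all 16368 genes by Benjamini-Hochberg, and called below 0.05. The step was tested on simulated data. The members and the 29 gene lists were chosen with earlier results of these data known. Named genes were Mef2c, Gata4, Tbx5 and Nr4a3, the 15 largest differences in each direction among genes called in every fit with 1 of 8 libraries left out (at least 20 CPM in a group, more than 3 counts in each group, no predicted genes), and up to 4 members of each list by smallest p, or by CPM where fewer were called. Genes with 3 or fewer counts in a group are given with bounds at a floor of 3 counts over the group, which cover counting error only. Myh6, Wt1, Muc16, Ifit3, Rsad2 and the genes of the closing section were added after their values were seen. Alternatives were DESeq2 1.42.0, DESeq2's size factors in edgeR, no filter, the 8 libraries alone, a replicate block, each library left out, and a gene length trend removed, the last chosen after seeing the data. Promoters came from RefSeq (GRCm38.p6). Coordinates are those of the deposited table, 99.42% of whose 55141 genes shared with the GRCm38 annotation have the same position. Python 3.11.15, pandas 2.3.3 and matplotlib 3.10.9 made the tables and figures.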

Additional observations from a re-analysis of the deposited data

Results flagged for a closer look

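The effect of MGT differed between 3-month and neonatal cells, by the interaction term of edgeR's quasi-likelihood test, for 374 genes in the positive and 231 in the negative direction. Groups of 2 libraries allow no test for single outlying libraries.

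Among genes called in every fit with a library left out that had at least 20 CPM in a group and more than 3 counts in each group, predicted genes apart, the largest positive log2 differences were those of Upk1b (6.03), Msln (5.35), Tnnt2 (4.74), Ptprq (4.18), Flt1 (4.16), Pappa2 (3.81), Krt7 (3.59), Bmp3 (3.32), Klhl30 (3.25), Lrrn4 (3.08), Itga7 (3.07), Hpgd (2.97), Cspg4 (2.87), Hpx (2.55) and Cd24a (2.46). Under the same limits, which leave out Myl7 and Mx1, the largest negative ones were those of Abi3bp (-3.15), Mx2 (-1.52), Serpina3g (-1.43), Mfap4 (-1.29), Peg10 (-1.29), Scn7a (-1.2), Sox9 (-1.14), Trim21 (-1.08), P4ha3 (-1.08), Emb (-1.07), Ccn3 (-1.05), S1pr3 (-1.04), Megf10 (-1.03), Dhx58 (-1.03) and Trabd2b (-1.03).

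Among genes named by rule, the effect itself was called in opposite directions at the 2 ages for Upk1b, Krt7, Ptprq and Lrrn4. It was so further for Mgp (0.73), Ccl20 (2.06), Csf3 (2.83), Gpc3 (1.65), Emcn (2.12) and Adamts1 (-0.62), where the values are the differences. Adamts1 fell with MGT at 3 months and rose in neonatal cells, and the other 5 did the reverse. Over all genes with a called difference, 35 rose at 3 months and fell in neonatal cells, and 7 did the reverse. The 35 include Nqo1, Ptgs1 and Cyp1a1, described below.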

How the results depend on the processing

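With 1 library left out, the number of positive differences ranged from 254 to 1016 (374 with all libraries) and of negative ones from 105 to 744 (231). Genes called higher with MGT at 3 months ranged from 968 to 2202 (1472) and lower from 764 to 2274 (1374). In neonatal cells higher calls ranged from 425 to 972 (698) and lower calls from 257 to 767 (531). The lone library left in an arm is then assumed to vary like the other groups. The highest counts of differences came without replicate 1 of 3-month LacZ cells, and the cause was not tested. The other settings moved each of these 6 counts by no more than 1.5 times: positive and negative differences numbered 390 and 219 with DESeq2's size factors, 464 and 307 without the filter on low counts, 352 and 199 with DESeq2, 324 and 228 in the 8 libraries alone, and 479 and 269 with the gene length trend removed. Among the named genes called, no difference that had an adjusted p changed sign. The difference of Nr4a3, which was not called, ranged from -0.14 to 0.17 with a library left out. Of 89 named genes called, 0 lost the call with other size factors, no filter or the length trend removed, 1 of 88 with DESeq2, 4 in the 8 libraries alone, and 4 to 16 with a library left out. Slc16a3 was the one lost with DESeq2, and Mmp8, Eno3, Slc16a3 and Wnt11 those lost in the 8 libraries alone. Ifit3, added later and not among the 89, lost its call without the filter.

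The replicate block gave 359 positive and 217 negative differences, and 3 of 89 named genes, Kcnj5, Mmp8 and Slc16a3, lost their call. The numbers are not said to pair libraries, and deviations of same-numbered libraries correlated between -0.1415 and 0.1497 over 15 pairs of groups.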

Other observations

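Some genes tied to the aryl hydrocarbon receptor, a sensor of dioxin-like compounds, were picked after their values were seen and belonged to no list. The targets of the receptor as a set were not tested. Ahr, the receptor itself, had 22.6 and 20.5 CPM in 3-month MGT cells, against 33.6 and 24.5 CPM in 3-month LacZ cells. In neonatal cells Ahr had 12.3 and 11.6 CPM with MGT, against 73.9 and 61.1 CPM with LacZ. It fell with MGT at both ages, and far more in neonatal cells. The Ahr difference was 2.07 ± 0.19 (adjusted p = 1.09e-07). Nqo1, a quinone reductase that the receptor is known to induce, had 110.2 and 113 CPM in 3-month MGT cells, against 54.2 and 71.7 CPM in 3-month LacZ cells. Nqo1 had 28 and 25.4 CPM in neonatal MGT cells, against 41.6 and 41.4 CPM in neonatal LacZ cells. MGT cells were above LacZ cells at 3 months and below them in neonatal cells, and the difference was 1.46 ± 0.16 (adjusted p = 8.08e-07). Cyp1a1, its classical target enzyme, had 1.12 and 0.965 CPM in 3-month MGT cells, against 0 and 0.284 CPM in 3-month LacZ cells. The neonatal Cyp1a1 levels were 0.337 and 0.242 CPM with MGT, against 1.65 and 1.01 CPM with LacZ, at few counts. The Cyp1a1 difference was 4.89 ± 0.83 (adjusted p = 4.73e-04). Ahrr, the repressor of the receptor, had a difference of 2.18 ± 0.31 (adjusted p = 4.09e-05).

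Other genes outside the lists, also picked after their values were seen, had positive differences. Clu, the secreted chaperone clusterin, had 1489 and 1787 CPM in 3-month MGT cells, against 85.1 and 88.1 CPM in 3-month LacZ cells. In neonatal cells Clu had 1007 and 1051 CPM with MGT, against 214 and 201 CPM with LacZ. The Clu difference was 1.93 ± 0.15 (adjusted p = 3.29e-08). Ptgs1, the constitutive cyclooxygenase, had 258 and 270.4 CPM in 3-month MGT cells, against 107 and 141 CPM in 3-month LacZ cells. Ptgs1 had 62.9 and 50.02 CPM in neonatal MGT cells, against 81.5 and 77.2 CPM in neonatal LacZ cells. The Ptgs1 difference was 1.58 ± 0.18 (adjusted p = 4.87e-05), so that it and Ptgs2 both had a positive difference. Anxa8, a calcium-dependent membrane-binding protein, had 75.1 and 87.6 CPM in 3-month MGT cells, against 11.1 and 10.2 CPM in 3-month LacZ cells. The neonatal Anxa8 levels were 24.96 and 27.3 CPM with MGT, against 12.9 and 11.8 CPM with LacZ. The Anxa8 difference was 1.86 ± 0.17 (adjusted p = 6.87e-08).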
